A study of Mus musculus with 2 samples.

Results

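Cdkn1a-high cells are the cells with most RNA of Cdkn1a, the gene of the cyclin-dependent kinase inhibitor p21, among single cells of mouse dysplastic gastric organoids. In each of 2 libraries the cells were ranked by Cdkn1a counts per 10000 counts of the cell. Members were chosen by this value as the highest 25% of cells, the high group, which gave 400 of 1602 cells in the DMSO library and 213 of 854 in the pyrvinium library, 613 of 2456 cells in all. The lowest 25% of the same library, the low group, also 400 and 213 cells, served for comparison. The organoids are the Meta4 line, grown from stomach corpus of mice that carried Mist1-CreERT2Tg/+ and LSL-K-ras(G12D)Tg/+ and had undergone dysplasia induction, so an inducible Cre driven from Mist1, a transcription factor gene of zymogen-secreting chief cells, and the activated K-ras allele are common to both groups. One group received DMSO, the solvent, and the other pyrvinium, labelled Pyr, both for 1 day. The design text places sampling before the organoids were visibly disrupted and asks which subpopulations pyrvinium affects. There is 1 line and 1 library per treatment, so no difference here has a replicate check and none was tested. Treatment and library cannot be told apart.

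Cdkn1a is a textbook target of the transcription factor p53, and its protein p21 binds cyclin-dependent kinases and the replication clamp PCNA, which can hold a cell before DNA synthesis or before mitosis. Other inputs, among them stress pathways, growth factor signalling through ERK and differentiation, also raise Cdkn1a RNA, so a high level does not by itself mean that p53 is active or that the cell has stopped dividing. In gastric epithelium p21 is known from surface cells that have left the cycle.

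The ranking fixed the Cdkn1a levels, which are therefore a description. From the lowest to the highest of 4 equal groups the summed level was 140, 518, 941 and 1835 CPM (counts per 1000000 counts) with DMSO and 300.2, 745, 1260 and 2007 CPM with pyrvinium. Members of the DMSO high group held 12.011 to 60.8 Cdkn1a counts per 10000, with a median of 16.9, and the nearest cell outside held 12.010. Members of the pyrvinium high group held 15.4 to 43.5, with a median of 19.7, and the nearest cell outside held 15.3. The 2 high groups were thus cut at different levels. Over all cells the median was 7.03 with DMSO and 9.93 with pyrvinium, and 338 pyrvinium cells (39.6%) reached the lowest rate of the DMSO high group. No Cdkn1a count was found in 78 DMSO cells and 2 pyrvinium cells. Barcodes too small to be cells, which hold free RNA, carried Cdkn1a at 743 and 1092 CPM, which lies above the level of the low group in both libraries.

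The start of Cdkn1a is shown because the gene defines these cells. RefSeq (build GRCm38.p6) gives it 2 start windows of 300 bases (250 before to 50 after a start), at chr17:29090729-29091028 and chr17:29093519-29093818, both on the plus strand. The capitals mark a match to the p53 response element, a pair of 10-base half-sites searched on both strands with 1 mismatch allowed over 20 bases. Such a match stands in the windows of 29 of 27025 genes (0.107%), and the second window of Cdkn1a has none.
Cdkn1a, first start: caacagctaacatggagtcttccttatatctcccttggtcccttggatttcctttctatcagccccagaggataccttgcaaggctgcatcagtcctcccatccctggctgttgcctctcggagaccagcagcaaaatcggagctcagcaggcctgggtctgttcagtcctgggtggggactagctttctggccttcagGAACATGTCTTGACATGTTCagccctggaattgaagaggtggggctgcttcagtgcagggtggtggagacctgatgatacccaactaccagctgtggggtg
Cdkn1a, second start: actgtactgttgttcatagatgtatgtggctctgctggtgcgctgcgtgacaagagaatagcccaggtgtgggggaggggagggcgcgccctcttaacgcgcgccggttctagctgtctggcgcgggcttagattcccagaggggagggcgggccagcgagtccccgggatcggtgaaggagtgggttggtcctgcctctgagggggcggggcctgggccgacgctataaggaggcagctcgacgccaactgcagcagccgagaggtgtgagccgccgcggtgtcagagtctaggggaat

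The cells were those with at least 9320 (DMSO) or 13100 (pyrvinium) counts, with medians of 18592.5 and 31517 counts per cell and no cell barcode in common. High and low groups had similar medians, 18522 and 17631.5 counts with DMSO, and 34530 and 32434 with pyrvinium. Mitochondrially encoded genes took 2.48% of counts in the high and 2.70% in the low group with DMSO, and 1.33% and 1.98% with pyrvinium. The epithelial label held: Krt18, a simple-epithelium keratin, stood at 3208 and 3024 CPM in the DMSO high and low groups and at 2183 and 2495 CPM with pyrvinium, while 6 fibroblast markers summed to at most 1.88 CPM in any of these groups. Of 6 leukocyte markers, Lyz2 was at 0 in all of them and Cd3e in both high groups. The leukocyte sum was 46.0 CPM in the high against 6.93 CPM in the low group with DMSO, and 39.4 against 9.81 CPM with pyrvinium. Nearly all of it was Cd68, a lysosomal membrane gene, at 45.5 and 38.0 CPM in the high groups. Of 4 endothelial markers the sum was 36.2 to 65.6 CPM over the 4 groups, mostly Cdh5, and of 6 tuft cell markers 99.5 to 131 CPM, mostly Pou2f3, and neither was at 0 in any group. Muc5ac, a surface mucous cell mucin, had no count in any group.

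Each library's counts were summed over the cells of a group, and a gene was called higher or lower in a pair of groups where the CPM differed at least 1.5-fold and the whole 95% interval of the ratio, given in brackets on the log2 scale, lay on one side of 1. These intervals cover counting error only, not variation between cultures. From the sums alone, fewer cells with a transcript and less RNA per cell cannot be told apart. For some genes the spread over cells is therefore given as well. In the DMSO library 1112 of 10400 genes with at least 50 counts (10.7%) were higher in the high group and 1446 (13.9%) lower. In the pyrvinium library 667 of 10104 genes (6.6%) were higher and 2794 (27.7%) lower. The median gene had a log2 ratio of -0.13 with DMSO and -0.24 with pyrvinium. The levels below are read against these medians, and the list counts against these shares of all genes. Scaling by median of ratios set the medians to 0.00 and -0.07 and raised the share of higher genes among those called from 43.5% to 62.8% with DMSO and from 19.3% to 34.5% with pyrvinium.

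The word arrested held only in part. Cells were called S or G2M from scores over the lists of S phase and G2M genes whose single members are given further on, so calls and genes are not independent readouts. In the DMSO library 5.75% of high-group cells (exact binomial interval 3.68% to 8.50%) and 16% of low-group cells (12.5% to 19.97%) were called S, while G2M calls took 33.2% and 39.8% and neither phase 61.0% and 44.2%. In the pyrvinium library S calls took 12.7% (8.52% to 17.9%) of the high and 15.5% (10.9% to 21.1%) of the low group. G2M calls there took 23.0% and 17.4%, and neither phase 64.3% and 67.1%. DMSO Cdkn1a-high cells thus lay below their low group in S calls, and the pyrvinium intervals, taken over fewer cells, overlapped. These intervals count cells of a single library, which are not replicates, and cover no variation between cultures. They therefore decide no difference between the libraries. After thinning every cell to 5000 counts, S calls were 4.25% and 11.8% with DMSO and 25.8% and 28.2% with pyrvinium in the high and low groups, so the order was kept while the pyrvinium level depended on depth. Calls were scored within each library, so their levels do not compare between libraries. The S phase list summed to 552 CPM in the pyrvinium high group and 1047 CPM in the DMSO high group, the reverse order of the S calls. The phase calls read free RNA as well, and its part in them was not tested.

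**Figure D1:**
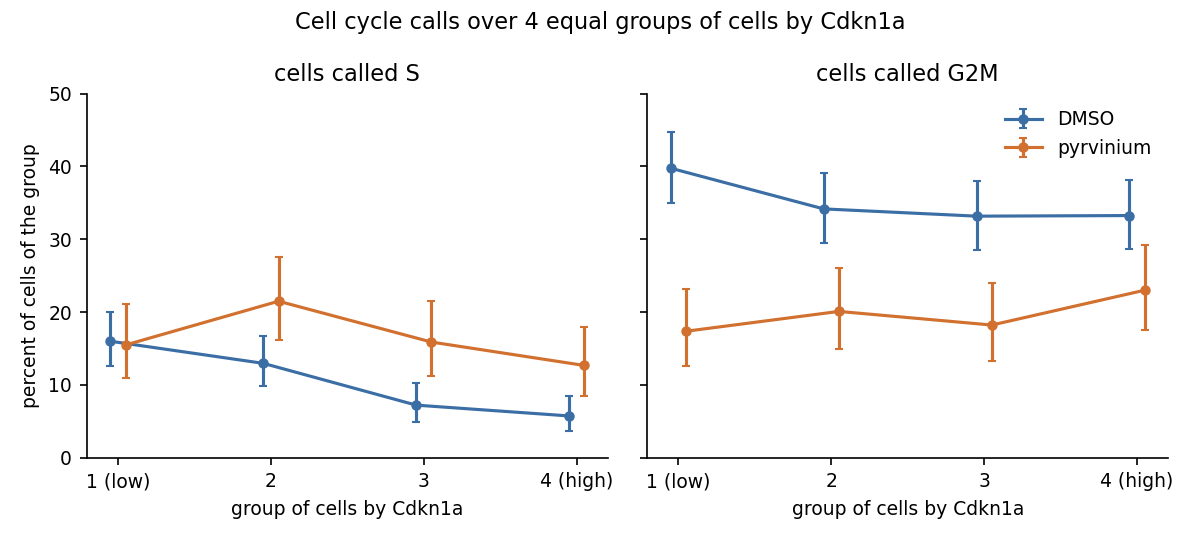
Share of cells called S (left) or G2M (right), in percent of the cells of a group with exact 95% binomial intervals, over 4 equal groups of cells ordered from low to high Cdkn1a in each library. S calls in the DMSO high group (5.75%) lie below those of the low group (16%), and the S intervals of the pyrvinium groups overlap. Calls were scored within each library, so levels do not compare between libraries.

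Among 43 measured S phase genes, which build or run the replication machinery, 21 were lower in the DMSO high group and 0 higher, at a median log2 ratio of -0.64. With DMSO 13.9% of all genes were lower. The DMSO levels of Mcm5, a subunit of the replicative helicase, were 50.7 CPM in the low and 23.5 CPM in the high group (-1.11 [-1.35, -0.87]). With pyrvinium 8 of 35 S phase genes were lower and 2 higher, at a median of -0.22, near the 27.7% of all genes that were lower and their median of -0.24, and Mcm5 stood at 13.2 and 8.61 CPM (-0.62 [-1.04, -0.19]). The pyrvinium median of this list was above 0 where the highest and lowest 10% of the cells were compared (0.49) or only cells of 15000 to 40000 counts. Mitotic genes divided by library. Of 54 G2M genes 15 were lower and 4 higher in the DMSO high group (median -0.35), against 3 lower and 10 higher of 50 with pyrvinium (median 0.26, but -0.13 without the cells called S or G2M). Aurkb, a kinase of chromosome segregation, stood at 54.3 and 43.9 CPM in the DMSO low and high groups (not called), and at 10.8 and 24.2 CPM with pyrvinium (1.16 [0.82, 1.52]). Ube2c, which helps the anaphase-promoting complex mark proteins, stood at 386 and 323 CPM with DMSO and at 153 and 301 CPM with pyrvinium (0.98 [0.89, 1.07]). Mki67, the proliferation antigen Ki-67, was called lower in the DMSO high group (28.4 to 18.9 CPM) and was not called with pyrvinium (14.6 and 12.8 CPM). Psrc1, a spindle gene that is also a p53 target, was higher in both libraries, from 24.3 to 77.7 CPM with DMSO and from 36.5 to 159 CPM with pyrvinium.

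Known p53 targets were mostly higher or uncalled in the Cdkn1a-high cells, and Gdf15, a secreted stress cytokine, led them. Of 31 measured targets 20 were higher and 1 lower in the DMSO high group (median 0.91), where 10.7% of all genes were higher. Of 30 with pyrvinium 15 were higher and 0 lower (median 0.61), where 6.6% of all genes were higher. Cdkn1a, which chose the cells, is left out of these counts. Gdf15 stood at 34.5 and 209 CPM in the DMSO low and high groups (2.60 [2.43, 2.77]) and at 145 and 1477 CPM with pyrvinium (3.35 [3.26, 3.43]). With each cell thinned to 5000 counts, a Gdf15 count was found in 10.8% and 49.5% of DMSO cells and in 53.1% and 97.7% of pyrvinium cells of the low and high groups (unthinned 33.2%, 77.2%, 92.0% and 100%). In free RNA the Gdf15 level was 100.4 CPM for the DMSO library and 747 CPM for the pyrvinium one, and its part in these shares was not tested.

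The feedback arm of the pathway differed between the libraries in its counts. Mdm2, the ubiquitin ligase that degrades p53, stood at 15.6 and 48.0 CPM with DMSO (1.62 [1.35, 1.90]) but at 27.1 and 26.2 CPM with pyrvinium (-0.05 [-0.31, 0.21]). Ccng1, cyclin G1, another feedback gene, stood at 79.9 and 195 CPM with DMSO (1.28 [1.16, 1.41]) and at 158 and 210 CPM with pyrvinium, which was not called. Trp53inp1, a cofactor of p53, stood at 3.10 and 17.0 CPM with DMSO and at 13.6 and 20.4 CPM with pyrvinium, called with DMSO only. In all 3 genes the pyrvinium low group already lay above the DMSO low group. Pmaip1, the gene of the death-promoting protein Noxa, was higher in both libraries, at 17.8 and 68.1 CPM with DMSO and at 11.98 and 34.3 CPM with pyrvinium. So were Plk3, a stress kinase gene (14.7 to 37.8 CPM and 16.4 to 54.0 CPM), and Gadd45a, a DNA damage gene (7.03 to 16.7 CPM and 22.7 to 63.5 CPM). Btg2, an antiproliferative gene, was called with pyrvinium only (71.1 to 186 CPM), at 196 and 282 CPM with DMSO. Tigar, which damps glycolysis, went against its list, at 21.7 and 12.5 CPM with DMSO (-0.80 [-1.14, -0.46]). Neither Bax, which permeabilises mitochondria, nor the ribosomal paralog Rps27l was called in either library.

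**Figure D2:**
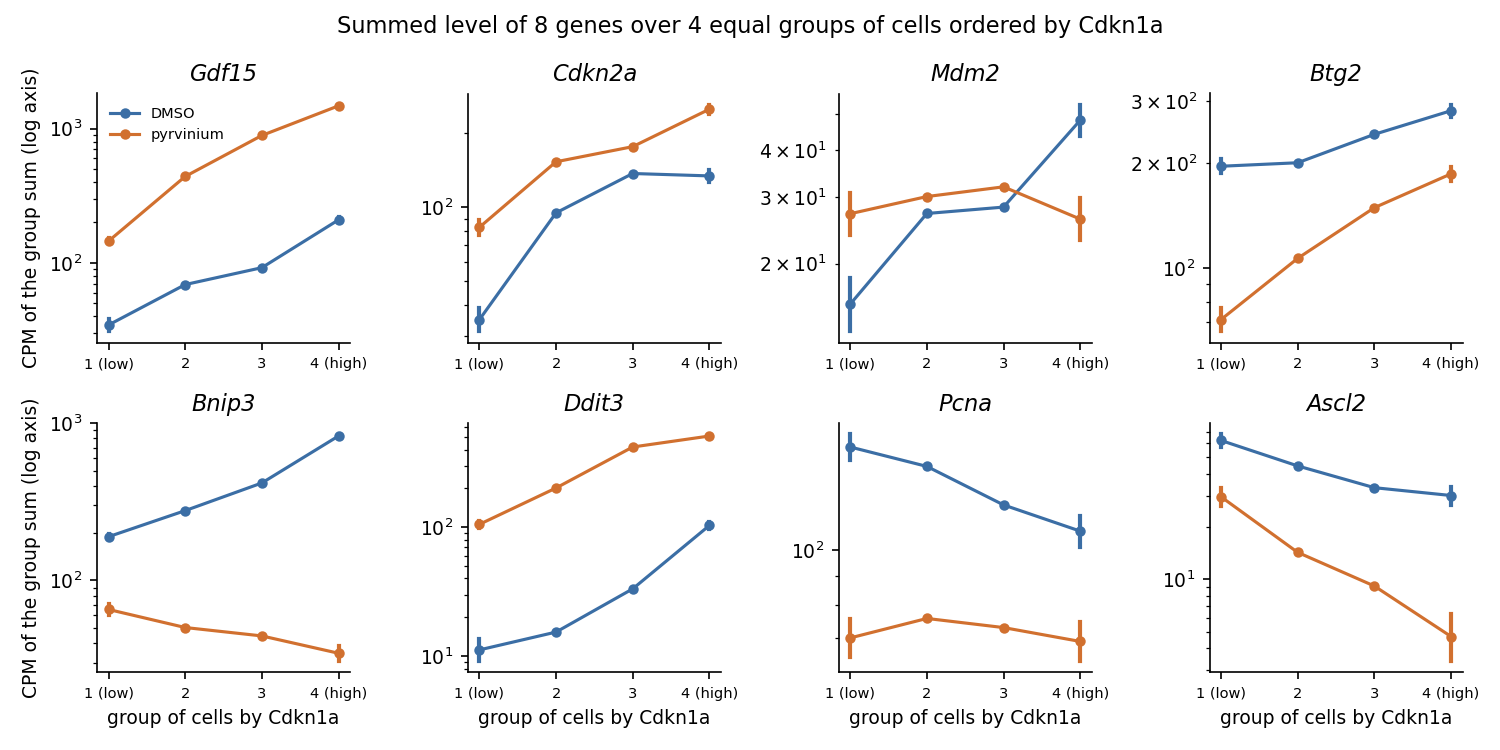
Summed levels of 8 genes (CPM on a log axis) in 4 equal groups of cells ordered by Cdkn1a in each library, with exact 95% Poisson intervals drawn for the lowest and highest group. Gdf15 climbs with the groups in both libraries, whereas Mdm2 climbs with DMSO and stands at 27.1 and 26.2 CPM in the pyrvinium low and high groups.

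Beside Cdkn1a itself, 2 of the 25 listed p53 targets that have a RefSeq window (8%) hold the p53 match, Ccng1 and Rps27l. The Ccng1 window, at chr11:40755237-40755536 on the minus strand, is printed for comparison with Cdkn1a, again with the match in capitals. No match in such a window says only that these letters are not in it.
Ccng1: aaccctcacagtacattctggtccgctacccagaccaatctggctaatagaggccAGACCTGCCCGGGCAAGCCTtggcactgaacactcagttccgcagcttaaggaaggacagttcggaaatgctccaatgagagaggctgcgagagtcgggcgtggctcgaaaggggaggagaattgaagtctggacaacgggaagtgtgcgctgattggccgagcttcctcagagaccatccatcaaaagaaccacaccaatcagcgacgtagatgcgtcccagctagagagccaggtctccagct

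Other cell cycle inhibitors were mixed. Of 9 measured inhibitors and pocket proteins 2 were higher with DMSO and 3 with pyrvinium, and 0 were lower in either library. Cdkn2a, the locus of p16 and p19ARF, whose transcripts a 3' count does not separate, stood at 34.9 and 134 CPM with DMSO (1.94 [1.77, 2.12]) and at 82.9 and 250.3 CPM with pyrvinium (1.59 [1.48, 1.71]). Its neighbour Cdkn2b, the gene of p15, stood at 9.82 and 27.4 CPM with DMSO (1.48 [1.13, 1.84]) and at 32.2 and 52.9 CPM with pyrvinium (0.72 [0.50, 0.93]). Cdkn2a and Cdkn2b were the called inhibitors common to both libraries. Cdkn2d, the gene of p19INK4d, was called with pyrvinium only, at 15.9 and 31.8 CPM. Cdkn1b, the gene of p27, was called in neither, at 17.9 and 19.1 CPM with DMSO and 16.2 and 10.9 CPM with pyrvinium, and Cdkn1c was below 3 CPM in each group. Among the cyclins of the same step, Ccnd1 was not called (200 and 250 CPM, 194 and 245 CPM), while Ccnd2 was higher with DMSO (227 to 395 CPM) and uncalled with pyrvinium (262 and 180 CPM). Of 12 measured genes of the senescence-associated secretion list, 2 were higher and 3 lower with DMSO (median -0.23). Of 11 with pyrvinium 2 were higher and 2 lower (median -0.19). All-gene shares were 10.7% higher and 13.9% lower with DMSO, and 6.6% and 27.7% with pyrvinium. The summed list stood at 483 and 931 CPM in the DMSO low and high groups, and at 396 and 531 CPM with pyrvinium.

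Hypoxia-response genes were higher in the DMSO Cdkn1a-high cells throughout the list and not so with pyrvinium. All 18 measured hypoxia genes were higher with DMSO (median 1.70), and 11 of 15 glycolysis genes were higher and 0 lower (median 0.89). With pyrvinium 2 of 17 hypoxia genes were higher and 6 lower (median -0.19), and 1 glycolysis gene was higher and 2 were lower (median -0.26). Over all genes 6.6% were higher and 27.7% lower with pyrvinium, at a median of -0.24, so both list medians lay near that of all genes. Ndrg1, a differentiation gene induced by low oxygen, stood at 39.1 and 400.0 CPM with DMSO (3.36 [3.20, 3.51]) and at 28.6 and 48.5 CPM with pyrvinium (0.76 [0.54, 0.99]). Bnip3, a receptor for mitochondrial clearance, stood at 190 and 830 CPM with DMSO (2.13 [2.05, 2.20]) and at 65.4 and 34.4 CPM with pyrvinium (-0.93 [-1.13, -0.73]), so the call had the opposite sign. Ero1a, an oxidase of disulfide bond formation, did likewise, at 79.2 and 670.2 CPM with DMSO (3.08 [2.97, 3.19]) and 143 and 83.9 CPM with pyrvinium (-0.77 [-0.90, -0.64]). Adm, a vasodilator peptide gene, was higher in both, from 10.6 to 76.8 CPM and from 6.10 to 19.3 CPM. Of the glycolytic enzymes, Pgk1 stood at 966 and 2573 CPM with DMSO (1.41 [1.38, 1.45]) and at 602 and 861 CPM with pyrvinium, not called. The lactate exporter Slc16a3 stood at 57.5 and 149 CPM with DMSO and at 5.56 and 5.77 CPM with pyrvinium.

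The core hypoxia motif ACGTG, searched on both strands, stood in the start windows of 14 of 17 hypoxia genes (82.4%), of 30.4% of the 8630 genes with both a window and a test, and of 21.8% of all genes with a window. Outside the list it did not mark the called genes: with DMSO it stood in 33.0% of the 873 higher and 30.2% of the 1167 lower genes with a window. Bnip3 is shown because its direction differed between the libraries. Its window lies at chr7:138909457-138909756 on the minus strand, with 2 overlapping matches, 1 per strand, in capitals.
Bnip3: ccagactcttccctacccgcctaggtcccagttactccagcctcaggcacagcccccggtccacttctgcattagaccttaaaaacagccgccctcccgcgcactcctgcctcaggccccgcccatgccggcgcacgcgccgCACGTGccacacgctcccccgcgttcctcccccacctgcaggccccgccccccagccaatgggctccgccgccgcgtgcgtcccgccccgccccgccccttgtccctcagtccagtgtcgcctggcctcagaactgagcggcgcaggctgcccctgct

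The integrated stress response, in which blocked translation initiation lets the factor ATF4 induce amino acid and death genes, had 12 of 25 genes higher and 0 lower with DMSO (median 0.41). With pyrvinium 2 were higher and 4 lower (median 0.03, or -0.06 over cells of at least 3000 counts), where 6.6% of all genes were higher and 27.7% lower. Ddit3, the factor CHOP, was higher in both libraries, at 11.2 and 103 CPM with DMSO (3.21 [2.92, 3.51]) and at 105 and 510 CPM with pyrvinium (2.28 [2.18, 2.38]). Trib3, a pseudokinase that restrains ATF4 and AKT, stood at 10.1 and 57.2 CPM with DMSO (2.50 [2.18, 2.82]) and at 108 and 125 CPM with pyrvinium (0.21 [0.09, 0.33]). Chac1, which degrades glutathione, stood at 6.20 and 21.5 CPM with DMSO (1.80 [1.37, 2.24]) and at 66.3 and 40.9 CPM with pyrvinium (-0.70 [-0.89, -0.51]). For Trib3, Chac1 and Ddit3 the pyrvinium low group was at or above the DMSO high group. Nupr1, a stress-induced chromatin protein, stood at 265 and 2091 CPM with DMSO (2.98 [2.92, 3.04]) and at 1054 and 1476 CPM with pyrvinium, not called. Atf3, a stress-induced repressor, was called with pyrvinium only, from 8.28 to 40.5 CPM, and stood at 175 and 184 CPM with DMSO. Atf5, another factor of the response, and Slc7a5, an amino acid importer, were lower in the pyrvinium high group (72.6 to 24.6 CPM and 69.3 to 25.2 CPM). The neighbouring NRF2 list of antioxidant genes had 9 of 18 higher and 0 lower with DMSO (median 0.50) and 3 higher and 4 lower with pyrvinium (median 0.11, or -0.02 where the highest and lowest 50% of the cells were compared). The same all-gene shares apply to these pyrvinium counts. Hmox1, heme oxygenase, was higher in both, from 16.5 to 139 CPM and from 26.5 to 69.5 CPM.

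The C/EBP-ATF type motif TGATGNAA, on both strands, stood in the windows of 8 of 23 stress-response genes (34.8%), of 2.75% of the genes with both a window and a test, and of 4.51% of all genes with a window. Among the genes called with DMSO it stood in 4.35% of the higher and 2.57% of the lower ones. Trib3 (chr2:152344011-152344310, minus strand) and Chac1 (chr2:119350992-119351291, plus strand) are shown as 2 holders of the motif, which is in capitals, that were higher with DMSO and not with pyrvinium.
Trib3: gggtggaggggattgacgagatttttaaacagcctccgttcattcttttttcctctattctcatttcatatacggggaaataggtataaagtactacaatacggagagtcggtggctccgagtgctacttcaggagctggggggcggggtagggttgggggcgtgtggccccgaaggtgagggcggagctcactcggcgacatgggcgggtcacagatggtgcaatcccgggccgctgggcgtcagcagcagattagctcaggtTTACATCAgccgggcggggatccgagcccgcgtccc
Chac1: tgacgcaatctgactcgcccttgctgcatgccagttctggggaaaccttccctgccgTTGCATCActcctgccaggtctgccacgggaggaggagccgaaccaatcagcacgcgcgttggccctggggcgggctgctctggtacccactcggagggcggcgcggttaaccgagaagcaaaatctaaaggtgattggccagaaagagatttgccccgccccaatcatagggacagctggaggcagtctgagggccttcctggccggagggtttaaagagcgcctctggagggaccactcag

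Cdkn1a-high cells varied among themselves within the DMSO library. After thinning, the summed hypoxia genes of 214 of the 400 DMSO members (53.5%, interval 48.5% to 58.5%) exceeded the 90th percentile of the DMSO low group, as did the stress-response sum in 41.0% and the p53 sum, which leaves Cdkn1a out, in 36.8%. With pyrvinium the p53 sum exceeded that of its low group in 75.1% of the 213 members, the stress-response sum in 15.0% and the hypoxia sum in 3.29%. Ddit4, Sesn2, Gdf15 and Gadd45a stand on more than one of these lists. Without them the shares were 52.5% for hypoxia, 39.2% for the stress response and 27.0% for p53 with DMSO, and 4.69%, 15.5% and 43.7% with pyrvinium. The DMSO members high in hypoxia genes were also those high in the stress response, 66.7% of them against 8.95% of the others without the shared genes. High p53 sums were found in 20% of them against 34.7% of the others.

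**Figure D3:**
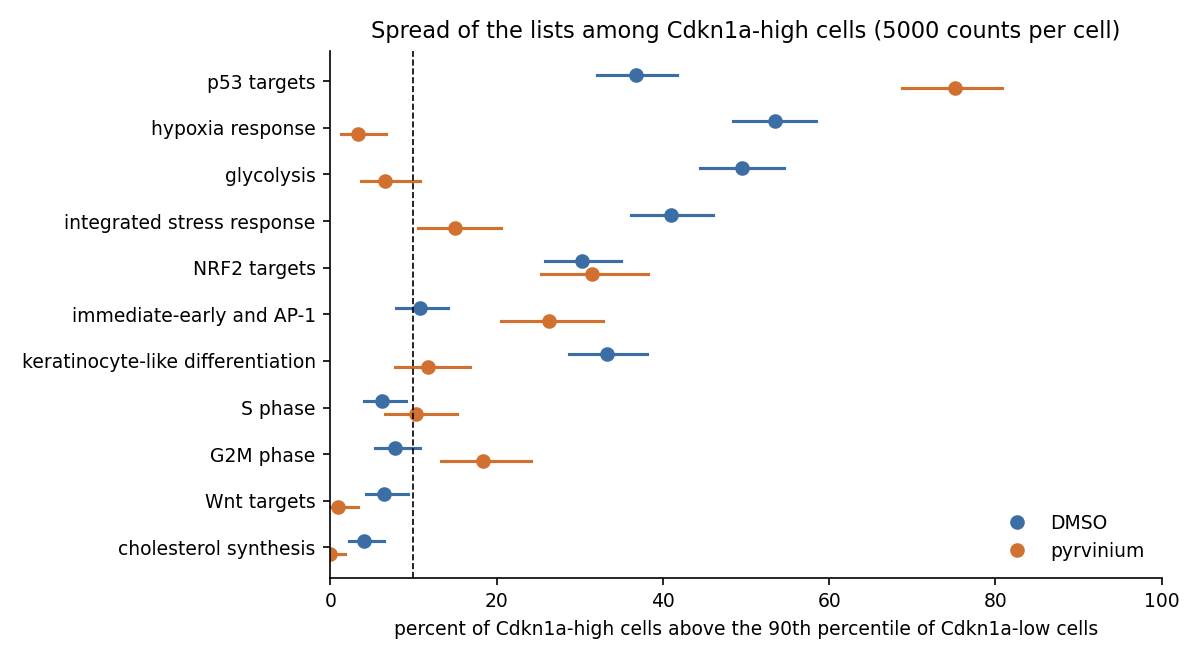
Share of Cdkn1a-high cells (percent of 400 DMSO and 213 pyrvinium cells, with exact 95% binomial intervals and a dashed line at 10%) whose summed list counts, at 5000 counts per cell, exceed the 90th percentile of the low group of their library. Hypoxia genes mark 53.5% of the DMSO and 3.29% of the pyrvinium cells, and p53 targets 36.8% and 75.1%.

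The 214 hypoxia-high DMSO members were set beside the other 186, a division made from the data, so hypoxia genes themselves are no finding in it. S or G2M was called in 16.4% of the 214 and in 65.1% of the 186 cells. The hypoxia-high cells were somewhat shallower, with medians of 16562 and 20222.5 counts, and held more Cdkn1a, 2082 against 1588 CPM. Replication genes followed the phase calls, Mcm5 at 6.19 against 40.8 CPM and Pcna at 60.1 against 156 CPM. Stress genes lay on the hypoxia-high side, Ddit3 at 192 against 14.1 CPM, Trib3 at 106 against 8.82 CPM, Nupr1 at 3855 against 330.0 CPM and Hmox1 at 255 against 23.4 CPM. Of the p53 targets set side by side, Pmaip1 (109 against 26.9 CPM), Plk3 (52.6 against 22.9 CPM), Btg2 (340.1 against 224 CPM) and Sertad1, a cell cycle regulator (177 against 116 CPM), were higher in the hypoxia-high cells. Phlda3, an AKT repressor, was lower (48.0 against 80.1 CPM), and Mdm2 (41.8 against 54.3 CPM) and Ccng1 (160 against 230 CPM) were not called. Gdf15 (244 against 174 CPM), Trp53inp1 (19.2 against 14.8 CPM), Sesn2 (33.1 against 24.7 CPM) and Perp (253 against 295 CPM) were not called either. Cdkn2a was lower in them, at 97.0 against 171 CPM, and its neighbour Cdkn2b higher, at 33.4 against 21.4 CPM. The DMSO high group therefore holds a largely non-cycling set with hypoxia and stress RNAs and a set mostly called S or G2M. In the DMSO low group 16% of cells were called S and 39.8% G2M. The low group was not divided in this way, so whether the division is particular to Cdkn1a-high cells was not tested.

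**Figure D4:**
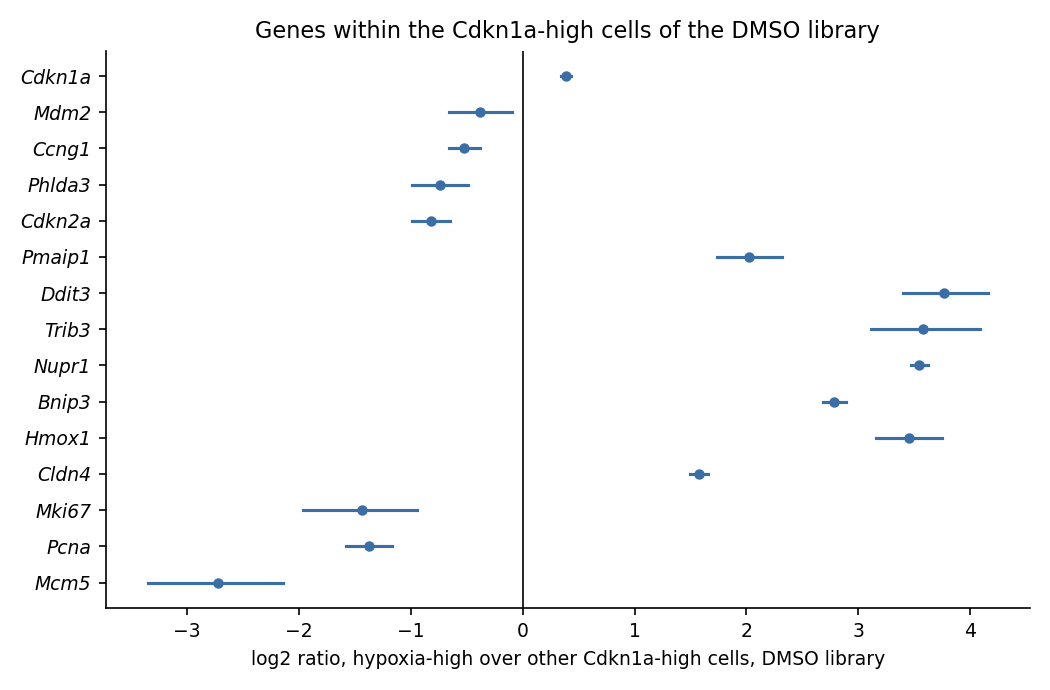
Log2 ratio of the summed level of each gene in the 214 hypoxia-high DMSO Cdkn1a-high cells over the other 186, with 95% counting intervals. Ddit3 and Nupr1 lie on the hypoxia-high side, Mcm5 and Cdkn2a on the other, and the ratio of Bnip3, a hypoxia list member, is set by the division.

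Areg and Dusp4, a pair of genes tied to growth factor signalling, were higher in both high groups, while the lists around them held genes called in both directions. Areg, an EGF receptor ligand, stood at 35.8 and 166 CPM with DMSO (2.22 [2.05, 2.39]) and at 92.3 and 480 CPM with pyrvinium (2.38 [2.27, 2.49]). Dusp4, a phosphatase that limits ERK in the nucleus, stood at 7.03 and 21.5 CPM with DMSO (1.61 [1.21, 2.03]) and at 25.9 and 166 CPM with pyrvinium (2.67 [2.48, 2.88]). A Dusp4 count was found, after thinning, in 53.5% of pyrvinium high-group cells and in 12.2% of its low group, and in 9.5% and 3.75% with DMSO (unthinned 93.0%, 43.7%, 27.5% and 15.5%), with free RNA at 110 and 14.05 CPM. As a list, 7 of 16 ERK feedback genes were higher and 2 lower with DMSO (median 0.38), and 5 were higher and 3 lower with pyrvinium (median -0.04). Immediate-early and AP-1 genes had 7 of 22 higher and 1 lower with DMSO (median 0.33) and 11 of 19 higher and 2 lower with pyrvinium (median 0.60). Beside these 2 lists, 10.7% of all genes were higher and 13.9% lower with DMSO, and 6.6% higher and 27.7% lower with pyrvinium. Klf6, a zinc finger factor, was called with pyrvinium only (13.9 to 58.3 CPM, against 112 and 163 CPM with DMSO). Fos, a subunit of AP-1, was called lower there (42.4 to 27.1 CPM) and stood at 442 and 544 CPM with DMSO. Nr1d1 and Dbp, a repressor and an activator of the circadian clock output, were among the highest-ranked pyrvinium genes and were higher in both libraries, Nr1d1 from 9.93 to 27.5 CPM and from 13.5 to 73.4 CPM, Dbp from 3.20 to 8.17 CPM and from 5.45 to 29.2 CPM. Tsc22d3, a glucocorticoid-induced gene, and Sat1, which acetylates polyamines, were likewise higher in both (26.6 to 118 and 47.1 to 200.3 CPM, and 69.9 to 259 and 112 to 464 CPM).

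Squamous-type barrier genes were higher with DMSO in 11 of 19 and lower in 0 (median 1.29). With pyrvinium 5 of 20 were higher and 3 lower (median 0.31). Of all genes 10.7% were higher and 13.9% lower with DMSO, and 6.6% and 27.7% with pyrvinium. Ly6d, a surface protein of stratified epithelium, stood at 834 and 2666 CPM with DMSO (1.68 [1.64, 1.71]) and at 1128 and 2857 CPM with pyrvinium (1.34 [1.31, 1.37]). Sprr1a, a cornified envelope precursor, was higher in both, from 8.89 to 68.1 CPM and from 5.56 to 32.5 CPM, but 95.5% and 87.2% of its high-group counts came from the top 10% of those cells. Cnfn, another cornified envelope gene, was called with DMSO only, at 15.3 and 153 CPM, with 16.9 and 24.5 CPM under pyrvinium, and 96.9% of its DMSO high-group counts came from the top 10% of cells. The RNA of these 2 envelope genes is thus that of few members. Sprr2a3 shares its sequence with near-identical copies, so its level (4047 and 10369 CPM with DMSO) is uncertain. Cldn4, a tight junction protein, and Psca, a surface antigen of gastric foveolar cells, were higher in both libraries (317 to 732 and 160 to 541 CPM for Cldn4, 74.6 to 207 and 64.1 to 169 CPM for Psca). Krt19, a ductal keratin, was called with DMSO only, at 965 and 3105 CPM, with 964 and 746 CPM under pyrvinium. Mucous cell genes were mixed, with 1 of 8 surface mucous genes higher and 2 lower with DMSO and 3 higher and 2 lower with pyrvinium. Of 11 mucous neck genes 2 were higher and 4 lower with DMSO, and of 9 with pyrvinium 1 was higher and 3 were lower. Muc1, a membrane mucin (407 to 160 CPM with DMSO, 171 to 60.2 CPM with pyrvinium), and Agr2, which folds mucins (780 to 271 CPM, 252 to 116 CPM), were lower in both. Itln1, an intelectin of mucous cells, was among the lowest with DMSO, at 58.3 and 6.07 CPM, and Ifitm3, an interferon-induced membrane gene, stood at 2656 and 920 CPM there. Cited1, a transcription cofactor, ranked first with DMSO by the interval bound nearest 0 among genes of at least 20 CPM, at 0.827 and 29.8 CPM, but 88.9% of its high-group counts came from the top 10% of the cells.

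Most Wnt targets and nucleolar genes were lower in the Cdkn1a-high cells of both libraries, and stem cell genes mostly so with pyrvinium. Of the Wnt targets 12 of 17 were lower with DMSO (median -0.79) and 13 of 16 with pyrvinium (median -1.16), and of the stem and progenitor genes 7 of 16 (median -0.46) and 11 of 15 (median -1.18), with 1 higher in each library. Over all genes 13.9% were lower with DMSO (median -0.13) and 27.7% with pyrvinium (median -0.24). Lgr5, a Wnt-dependent receptor of gastric and intestinal stem cells, stood at 31.0 and 14.5 CPM with DMSO (-1.10 [-1.41, -0.80]) and at 14.6 and 3.16 CPM with pyrvinium (-2.21 [-2.84, -1.62]). Ascl2, a stem cell transcription factor, stood at 62.3 and 30.1 CPM with DMSO (-1.05 [-1.26, -0.84]) and at 29.6 and 4.68 CPM with pyrvinium (-2.66 [-3.16, -2.19]). Sox9, a progenitor factor, was lower in both (26.5 to 15.3 CPM and 20.1 to 5.23 CPM). Cd44 and Prom1, surface markers used for gastric tumour stem cells, were called with pyrvinium only, Cd44 from 145 to 64.4 CPM and Prom1 from 157 to 71.7 CPM, against 104 and 95.7 CPM and 131 and 116 CPM with DMSO. Myc, a growth regulator, was also called with pyrvinium only (38.8 to 17.6 CPM), at 59.6 and 65.1 CPM with DMSO.

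Of 21 nucleolar genes, which make ribosomes, 17 were lower with DMSO (median -0.70) and 13 with pyrvinium (median -0.68), and 0 were higher. Lower genes made up 13.9% of all genes with DMSO and 27.7% with pyrvinium. Dkc1, which modifies ribosomal RNA, stood at 39.7 and 18.9 CPM with DMSO and at 24.7 and 10.7 CPM with pyrvinium. Cholesterol synthesis genes were lower in 4 of 18 with DMSO (median -0.20, where 13.9% of all genes were lower) and in 13 of 18 with pyrvinium (median -0.84, where 27.7% were lower), and higher in 0. Nuclear-encoded respiratory chain genes were lower in 7 of 32 with DMSO (median -0.41, again against 13.9% of all genes). With pyrvinium 0 of them were called (median -0.02). Mitochondrially encoded genes were lower in 7 of 12 with pyrvinium (median -0.60, against 27.7% of all genes) and in 0 with DMSO (1 higher, median -0.13). The lowest-ranked pyrvinium genes included Cldn2, a pore-forming claudin (112 to 13.2 CPM, against 75.2 and 52.4 CPM with DMSO), Thbs1, a matrix glycoprotein (93.6 to 13.8 CPM, and lower with DMSO, 205 to 76.4 CPM), and Pthlh, a parathyroid hormone-like peptide (29.4 to 3.70 CPM, against 103 and 89.8 CPM).

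Over 9825 genes tested in both libraries, 308 (3.13%) were higher in both high groups and 685 (6.97%) lower in both. The 308 are 30.2% of the 1019 genes higher with DMSO and 51.2% of the 601 higher with pyrvinium, and the 685 are 52.1% of the 1314 lower with DMSO and 24.9% of the 2748 lower with pyrvinium. Another 90 of the 1019 genes higher with DMSO were lower with pyrvinium, among them Bnip3, Ero1a and Chac1. Beside this, 2748 of all 9825 genes were lower with pyrvinium. Of the 1314 genes lower with DMSO 14 were higher with pyrvinium, where 601 of all 9825 were higher.

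**Figure D5:**
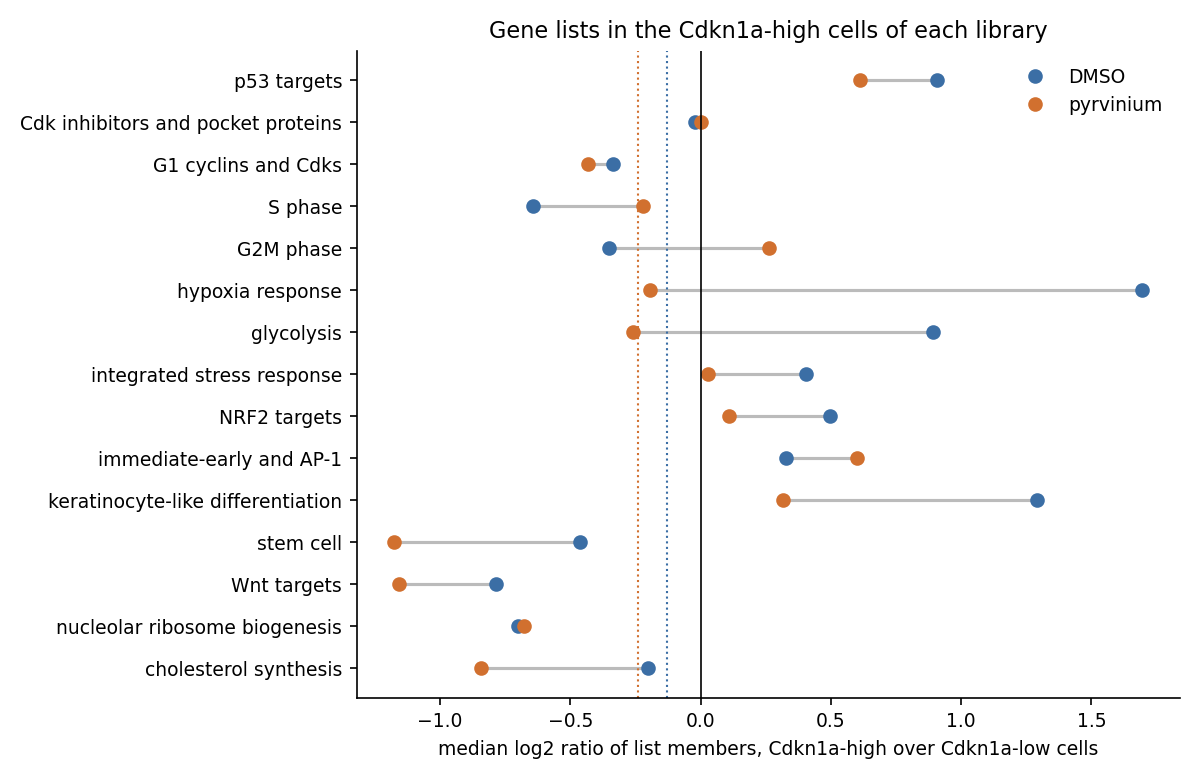
Median log2 ratio of high over low group for 15 gene lists in the DMSO and the pyrvinium library, with the median over all tested genes as dotted lines (-0.13 and -0.24). The hypoxia list stands at 1.70 with DMSO and -0.19 with pyrvinium, and the p53 list at 0.91 and 0.61.

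The high groups were then compared with each other, pyrvinium over DMSO. Of 10055 genes 807 (8.03%) were higher and 2448 (24.3%) lower, at an all-gene median of -0.16, and higher genes made up 24.8% of those called. That share was 33.8% under median-of-ratios scaling (median -0.07), 34.2% without mitochondrial and ribosomal protein genes in the scaling, 33.8% again over cells of 15000 to 40000 counts (677 higher, 1325 lower, median -0.05), 39.6% with the highest 10% of the cells and 40.1% without cells called S or G2M. Between the low groups 1186 of 10418 genes (11.4%) were higher and 1306 (12.5%) lower with pyrvinium, at a median of 0.00.

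Single genes led by Gdf15, Dusp4 and Ddit3 were higher in pyrvinium Cdkn1a-high cells, while the hypoxia, glycolysis, AP-1 and cell cycle lists had mostly lower genes. Gdf15, at 1477 against 209 CPM, differed by a log2 ratio of 2.82 [2.75, 2.89]. Dusp4 (166 against 21.5 CPM, 2.94 [2.73, 3.17]), Ddit3 (510 against 103 CPM, 2.30 [2.20, 2.41]) and Areg (480 against 166 CPM, 1.53 [1.44, 1.61]) were also higher. Cdkn2a (0.90 [0.80, 1.00]) and Cdkn2b (0.95 [0.73, 1.18]) were higher too, while Mdm2 was lower (-0.87 [-1.10, -0.64]). By the low-group levels given above, Gdf15, Dusp4, Ddit3, Areg, Cdkn2a and Cdkn2b also stood higher with pyrvinium between the low groups. For Ddit3, Cdkn2a and Cdkn2b the low groups differed by a wider ratio than the high groups. Mdm2 stood higher with pyrvinium between the low groups, opposite to the high groups. Of 25 stress-response genes 15 were higher and 5 lower (median 0.73), and of 30 p53 targets 2 were higher and 8 lower (median 0.09), where 24.3% of all genes were lower. Of 16 ERK feedback genes 3 were higher and 6 lower (median -0.26). Hypoxia genes were lower in 17 of 18 and higher in 0 (median -2.00), and all 15 glycolysis genes were lower (median -1.58), with Bnip3 at 34.4 against 830 CPM (-4.59 [-4.76, -4.43]). Immediate-early and AP-1 genes were lower in 18 of 21 and higher in 0 (median -1.49), led by Fosb at 1.09 against 47.7 CPM and Fos at 27.1 against 544 CPM. S phase genes were lower in 24 of 38 and higher in 0 (median -0.75), and G2M genes lower in 30 of 52 and higher in 1 (median -0.66), although both medians lay above 0 where the highest 10% were compared (0.03 and 0.11). Several of these differences were as large or larger between the low groups. Between the low groups 20 of 25 stress-response genes were higher and 2 lower (median 1.20), and 11 of 30 p53 targets were higher and 2 lower (median 0.36). S phase genes were lower there in 39 of 43 (median -1.36), G2M genes in 47 of 54 (median -1.13) and immediate-early and AP-1 genes in 17 of 21 (median -1.61). Hypoxia genes had 8 of 18 lower and 3 higher between the low groups (median -0.44), and glycolysis genes 6 of 15 lower and 1 higher (median -0.54). Cited1 and Klf2, a quiescence-associated factor, had no count in the pyrvinium high group against 29.8 and 20.1 CPM with DMSO, at least 91.2-fold and at least 61.5-fold lower, taking 3 counts in the group as the floor. Of further genes, Hspa1a, an inducible heat shock chaperone, stood at 44.1 against 9.49 CPM and Cth, which makes cysteine, at 135 against 35.7 CPM. Lcn2, a siderophore-binding protein, was higher at 9.80 against 1.77 CPM, although in each library it was lower in the high group than in the low.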

How the data were processed

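Single cells were captured by PIPseq, a template-emulsion method that reads transcript 3' ends, per the labels' protocols. The deposited matrices hold whole-number counts per gene and barcode, 331629 barcodes for DMSO and 353485 for pyrvinium over 32227 genes, and nothing states if these were collapsed to molecules. Partek and GRCm39 are named by the submitters' processing notes, and the aligner is not given in the sources used here. No column of per-sample values was left unused (0).

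Cells were barcodes at or above the 99th percentile of the 2000 largest totals divided by 10, rounded. Ties in Cdkn1a rate were broken by barcode. Counts were summed per group and library, given as CPM with exact Poisson intervals, and compared by exact conditional binomial 95% intervals (scipy 1.17.1), with a floor of 3 counts for a sum of 0. With 1 library per treatment no test across samples could be run, and no p-value was computed. Phases were scored in scanpy 1.11.5. Scrublet called 4 and 2 cells, too few for a working caller, so doublets were kept and the 5% of highest score left out only as an alternative. The calculation was tested on simulated data. Named genes were the 12 highest and 12 lowest of each comparison by the interval bound nearest 0 with at least 20 CPM, up to 5 members of each list with at least 10 CPM, members going against their list, and a fixed set, and a few of them are not reported here. Phlda3, Bax, Rps27l, Sertad1 and genes that only the division of DMSO members names were chosen after their values were seen. The members and all 39 lists were chosen with earlier results of these data known. The division of DMSO members by hypoxia genes, the lists without shared genes and the single Cdkn1a cutoff were added after seeing the data. Alternatives changed the cell threshold, depth range, member share, phase, scaling, free RNA, doublets and count minimum. RefSeq windows (GRCm38.p6) were used for sequence only, since no GRCm39 genome was used here.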

Additional observations from a re-analysis of the deposited data

Results flagged for a closer look

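The 15 named genes below were called in opposite directions in the high against low groups of the 2 libraries, and the difference between the libraries was not tested, as each treatment has 1 library. They are given as log2 ratios, pyrvinium first and DMSO second. All were higher with DMSO and lower with pyrvinium, where 27.7% of all genes were lower with pyrvinium. Hypoxia-response and glycolysis genes among them were Bnip3 (-0.93 and 2.13), Egln1 (-1.84 and 1.16) and Egln3 (-1.01 and 2.02), both oxygen-sensing hydroxylases, Ero1a (-0.77 and 3.08), Hk2, a glycolytic hexokinase (-0.73 and 0.89), Vegfa, an angiogenic growth factor (-0.93 and 1.24), and Vldlr, a lipoprotein receptor (-0.69 and 2.07). Stress and antioxidant genes were Chac1 (-0.70 and 1.80) and Srxn1 (-0.99 and 0.70). Epithelial and other genes were Avil, an actin-binding gene of tuft cells (-0.98 and 1.39), Ccn2, a matrix signalling protein (-1.60 and 1.49), F3, tissue factor (-0.71 and 2.70), Krt4, a squamous keratin (-3.00 and 0.88), Nlrp6, an inflammasome sensor (-2.68 and 2.15), and Tff3, a trefoil peptide (-0.79 and 1.64).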

How the results depend on the processing

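Of the 114 recomputed counts of called genes 88 stayed within 1.5 times their main value and 26 did not. The number of genes tested changed with the setting, so a moved count is not by itself a moved share. Over cells of 15000 to 40000 counts (202 and 105 cells a group) the counts were 327 higher and 1022 lower with pyrvinium, 1325 lower between the high groups, and 156 higher and 303 lower in both libraries. With pyrvinium 6511 genes were tested there, against 10104 in the main setting. Of the main pyrvinium calls, 233 of 667 higher (34.9%) and 815 of 2794 lower (29.2%) were called again in the same direction. Groups drawn from thinned cells left 433 genes lower in both. The highest and lowest 10% (160 and 85 cells) gave 1634 lower of 6936 tested genes with pyrvinium and 1324 lower of 6865 between the high groups. The highest and lowest 50% gave 695 higher and 579 lower with DMSO, 420 higher with pyrvinium, and 127 higher and 235 lower in both. Without cells called S or G2M, 1595 genes were lower between the high groups. Median-of-ratios scaling gave 858 lower with DMSO, 1029 higher with pyrvinium, and 473 higher and 354 lower in both. With at least 200 counts per pair the counts were 599 and 845 (DMSO, higher and lower), 342 and 1173 (pyrvinium), 447 and 1120 (between the high groups) and 169 and 284 (both libraries). Tested genes then numbered 6232 with DMSO, 5925 with pyrvinium and 5799 between the high groups, so fewer genes could be called. One Cdkn1a cutoff for both libraries gave 877 higher and 2372 lower.

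Of the list medians 1341 values stayed within 1.5-fold of the main value, 33 moved further, and 2 changed sign from a main median past that fold; smaller medians near 0 changed sign more often, as given beside them. Of the single genes 2908 values stayed within the main interval, 1188 left it, and 7 changed sign after a call. Between the high groups, the highest 10% reversed S phase (0.027), G2M (0.11), Pcna (0.23) and Aurkb (0.0012). With pyrvinium, Itln1 reversed over cells of at least 3000 counts (0.14) and of 15000 to 40000 counts (0.074), Mcm5 with 10% of the cells (0.080), and Top2a (-0.10) and Aurkb (-0.093) without cells called S or G2M. The cause was not tested. The hypoxia median with DMSO ranged from 1.02 to 2.35, and the p53 median from 0.51 to 1.29 with DMSO and from 0.26 to 0.85 with pyrvinium.

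No paired analysis was possible because each treatment has 1 library. Leaving out a library could not be done for the same reason. Genes under 50 counts per pair were not judged, and the intervals hold no variation between cultures.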
